A study of Mus musculus with 3 samples.

Results

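The genes described here encode the factors that start and extend protein chains on the cytosolic ribosome, taken as every gene symbol that begins with Eif or Eef. The rule found 68 of 23298 symbols. Of these, 64 averaged at least 1 FPKM across the control, 1 h and 6 h libraries (fragments per kilobase of transcript, scaled to sequencing depth, the unit the authors deposited) and are called expressed. Levels given as a triple are always in that order: control, 1 h, 6 h. Eef1a2, Eif2s3y and Eif4e1b were listed at 0 in every library, and Eif2c4 had 0.0247, 0.0910 and 0.111 FPKM. An exact 0 in such files can be a failed estimate. The label holds for most members but not all. The 4 Eif2c symbols are older names of Argonaute genes, which act in small RNA silencing, and the 4 Eif2ak symbols are kinases. Eif4a3 is best known as a core protein of the exon junction complex. Eef2k, the Eif4ebp genes and Eif4enif1 encode proteins that act on factors, and Eef1e1 a protein of the multi-synthetase complex.

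The RNA of all 3 libraries was from the mouse myoblast line C2C12 with an added human NOTCH1 that lacks its extracellular domain, called hN1∆ECD in the series title. The medium was DMEM with 20% FBS, and the cells were cultured in 10 uM DAPT, an inhibitor of the gamma-secretase that releases the Notch intracellular domain. DAPT was washed out 1 h or 6 h before collection in the cultures of interest, and the control is labelled as not treated, without saying whether it stayed in DAPT. Each group was 1 library of polyadenylated RNA, so no test between conditions, no SD and no p-value was possible, and a difference between libraries cannot be told apart from one between cultures. In bulk RNA, fewer cells of a type and less RNA per cell cannot be told apart either. Ratios are of FPKM, and the range after each is built from the deposited 95% bounds, which describe estimation inside a library and not the spread between cultures.

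The spacing of low values gave an approximate depth of 2.34e+07, 2.06e+07 and 2.08e+07 fragments. Of 5 myoblast markers, Myf5, Des and Cdh15 were above 1 FPKM, while Myod1 was at most 0.295 FPKM and Pax7 was near 0. The summed level of that list was 101, 141 and 162 FPKM. Cdh15 alone was highest at 6 h, at 27.4, 41.2 and 87.0 FPKM, while Des had 62.2, 73.3 and 66.3 FPKM and Myf5 11.4, 26.4 and 8.51 FPKM. Myotube markers summed to 30.2 to 36.7 FPKM, nearly all of it Acta1, and adipocyte markers to 6.59 to 9.56 FPKM, nearly all of it Fabp4. Fibroblast markers summed to at most 1.44 FPKM, leukocyte markers to at most 1.04 FPKM, all of it Cd68 with Ptprc and Cd3e at 0, and endothelial markers to at most 0.0128 FPKM. All FPKM in the 1 h library summed to 553792, against 576610 in the control and 565480 at 6 h. Set on a common sum, the 1 h library would be higher by 0.06 on the log2 scale, which is close to the size of many differences below. On that common sum the median of the expressed members at 1 h was -0.03 in place of -0.08. The part of the marker levels in the results was not tested.

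Initiation places the initiator tRNA at the start codon of an mRNA. The GTP-binding factor eIF2 brings the tRNA to the small ribosomal subunit, eIF1, eIF1A and eIF3 hold the subunit in a scanning state, and eIF4F recruits it to the capped mRNA. Elongation then relies on eEF1A, which delivers aminoacyl-tRNA, and on eEF2, which moves the ribosome along. Cells adjust the process through kinases that phosphorylate eIF2, through 4E-binding proteins under the control of mTOR, and through the kinase of eEF2. In proliferating cells several of these factors are among the most abundant messages, and much of their control acts at the protein level, which RNA does not show.

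Short sequences near the starts of these genes were searched for in RefSeq promoters (GRCm38.p6, 250 bases before to 50 bases after each annotated start). Promoters were found for 51 of the 64 expressed members. The E-box CACGTG, the letters bound by MYC and its partner MAX among other factors, lay in the promoters of 12 of these 51 (23.5%), beside 12.4% of 7754 genes of the same expression filter and 8.09% of all 27025 genes. It reads the same on both strands. It is shown for 5 abundant or rate-setting members, with the E-box in capitals:
Eef2: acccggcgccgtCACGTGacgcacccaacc
Eif4a1: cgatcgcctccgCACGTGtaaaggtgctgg
Eif4e: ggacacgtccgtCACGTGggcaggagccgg
Eif4g1: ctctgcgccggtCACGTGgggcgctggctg
Eif5a: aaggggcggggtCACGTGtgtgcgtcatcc

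These 30-base windows, each read on the strand of its gene, lie at chr10:81176576-81176605 (plus strand), chr11:69672595-69672624 (minus), chr3:138527192-138527221 (plus), chr16:20672730-20672759 (plus) and chr11:69921443-69921472 (minus). In Eif4g1 the E-box begins at base 16 after the annotated start, and in the others it begins upstream, 43 bases before the start in Eef2 and 189 bases in Eif4a1. Eif4e and Eif5a have more than 1 annotated start, and the occurrence nearest to any of them is shown.

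A second short sequence, CCGGAAG, which ETS family factors can bind, was searched on both strands. It was found in 18 of the 51 members (35.3%), beside 22.2% of genes of the same expression filter and 9.93% of all genes. It is shown, in capitals, for 4 members, including the 2 subunits of the exchange factor eIF2B that differed most between libraries:
Eef1b2: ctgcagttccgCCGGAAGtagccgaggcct
Eif2b2: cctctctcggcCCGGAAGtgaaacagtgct
Eif2b4: cccagtgcacgCCGGAAGttgtagtccgct
Eif3d: gctgtgacacaCTTCCGGttgtgtctcact

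The Eif3d window holds the reverse complement. The coordinates are chr1:63176821-63176850 (plus), chr12:85219486-85219515 (plus), chr5:31193120-31193149 (minus) and chr15:77970876-77970905 (minus), all GRCm38.p6. Eif2b2 and Eif2b4, which carry the same letters close to the start, stood on opposite sides of the control at 6 h, as described below.

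A TATA-like TATATAAG was present in only 2 members, beside 0.606% of genes of the same expression filter, and both are among the most abundant messages of the set. They are the elongation factor gene Eef1a1 (chr9:78481683-78481712, minus) and the scanning factor gene Eif1 (chr11:100319945-100319974, plus), shown with the motif in capitals. It begins at base 24 after the annotated start in Eef1a1 and at base 8 in Eif1:
Eef1a1: ggggagaacggTATATAAGtgcggcagtcg
Eif1: acaggggcggcTATATAAGtgaatacaggc

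The other spellings, searched on both strands too, overlap these or are general promoter letters, and each is given beside its share among genes of the same expression filter. The plain TATA box TATAAA was found in 4 members (7.84%, beside 8.29%). The shorter TATAAG, which lies inside the TATA-like motif above, was found in 2 (3.92%, beside 4.78%). The ETS-type letters CGGAAGT, which overlap the motif shown, were found in 14 members (27.5%, beside 16.5%). The longer CCGGAAGT, which contains both, was found in 9 (17.6%, beside 10.1%). The letters TGACGT, part of the site of CREB and ATF factors, were found in 9 members (17.6%, beside 14.4%). The full site TGACGTCA was found in 1 (1.96%, beside 3.86%). The CCAAT box was found in 17 members (33.3%, beside 43.9%). The GC box GGGCGG was found in 39 members (76.5%, beside 72.3%). Members with an E-box had a median log2 difference from the control of -0.09 at 1 h and -0.05 at 6 h, and those without one of -0.08 and 0.02. Members with CCGGAAG had medians of -0.10 and 0.07, and those without it of -0.03 and 0.01. A match is a run of letters, and binding was not measured.

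Levels of the 64 members spanned more than 3 orders of magnitude on the FPKM scale, from 2.29 to 4376 FPKM in the control. Their median was 69.8, 72.1 and 81.4 FPKM, against 13.7, 13.8 and 13.2 FPKM for all 10464 genes that passed the same filter. Of the members, 28 had a mean of at least 100 FPKM and 10 a mean under 10 FPKM. Together the set made up 2.33%, 2.24% and 2.38% of all FPKM in the 3 libraries. Eef1a1, Eif5a, Eef2 and Eif4a1 alone held 56.6%, 54.9% and 55.3% of the set's FPKM.

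**Figure D1:**
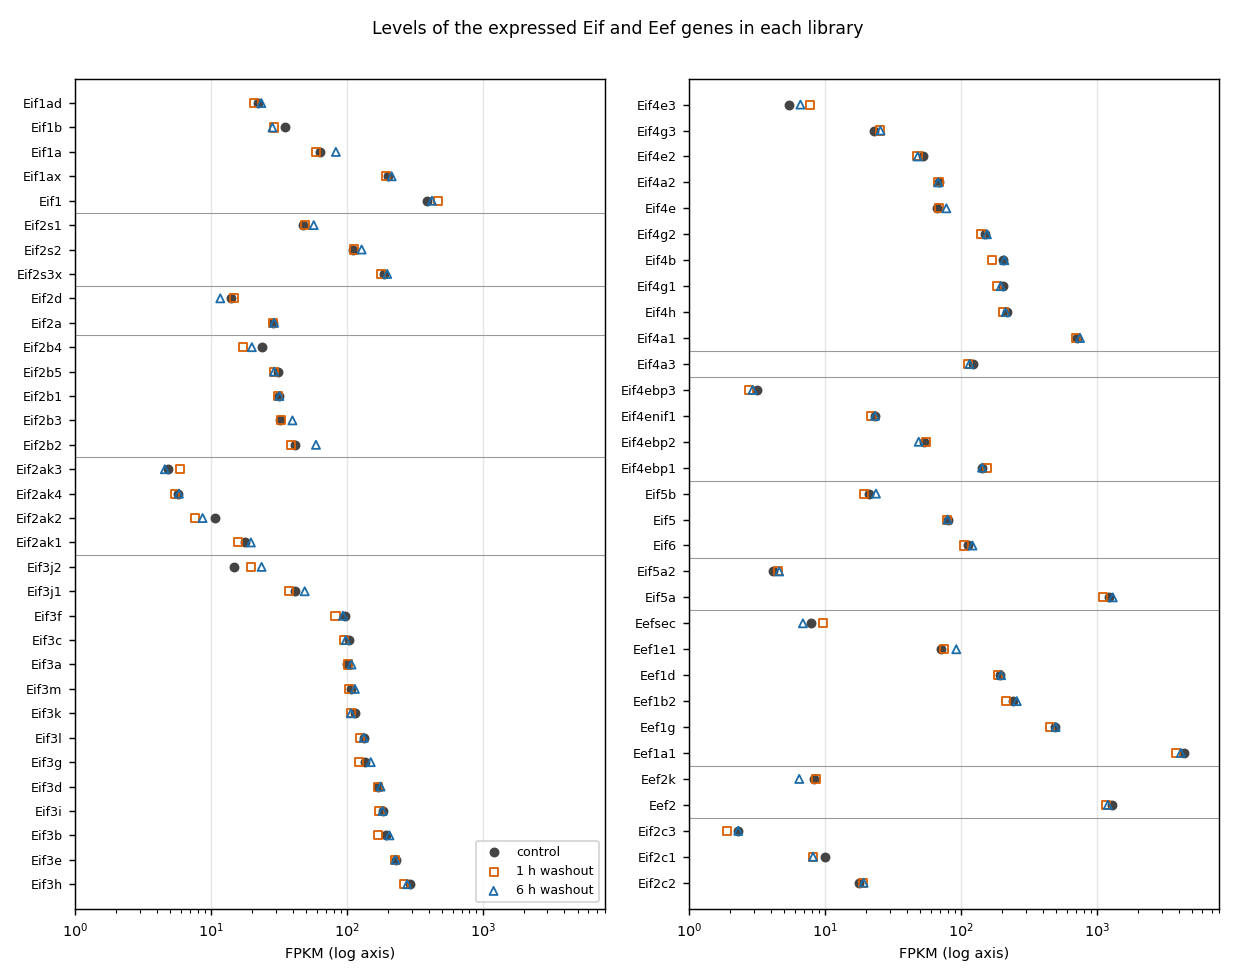
FPKM of the 64 expressed Eif and Eef genes on a log axis, with 1 point per library (filled circle control, open square 1 h washout, open triangle 6 h washout) and grey lines between functional groups. Eef1a1 is the most abundant gene in each library, and the 3 points of most genes nearly coincide.

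The set was close to constant across the libraries. Of the 64 members, 51 (79.7%) had a highest value less than 1.25 times their lowest, beside 52.7% of all genes that passed the filter. Abundant genes vary less from counting alone, so the same share was taken at higher levels. It was 78.7% of 61 members and 59.9% of 8129 genes among those averaging 5 FPKM or more. Among those averaging 50 FPKM or more it was 94.6% of 37 members and 76.7% of 1804 genes. The steadiest member was the helicase gene Eif4a2, at 68.6, 68.4 and 68.1 FPKM, a highest-to-lowest ratio of 1.01. The eIF3 subunit gene Eif3e, at 231, 227 and 228 FPKM, and the GTPase-activating factor gene Eif5, at 80.8, 79.5 and 79.8 FPKM, came next, at a ratio of 1.02 each.

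No member was 2-fold apart between any 2 libraries on the log2(FPKM + 1) scale, the scale of all log2 differences here. At 1 h, 0 of 64 members were at least 1.5-fold higher or lower than the control, beside 3.04% of all 10464 genes higher and 3.50% lower. At 6 h, 1 member was at least 1.5-fold higher than the control and 0 lower, beside 2.34% and 2.77% of all genes. Between 6 h and 1 h, 1 was higher and 0 lower, beside 4.69% and 5.57%. At 2-fold the shares of all genes were 1.31% higher and 0.831% lower at 1 h, 1.08% and 0.631% at 6 h, and 1.47% and 1.70% between the washout times. The members past 1.5-fold were Eif3j2, at 6 h against the control, and Eif2b2, at 6 h against 1 h. With a pseudocount of 5 neither passed, at log2 differences of 0.530 and 0.561 beside a threshold of 0.585, and on a common sum of FPKM Eif2b2 did not, at 0.578. Among the 8129 genes averaging 5 FPKM or more, 5.89%, 4.61% and 9.08% were past 1.5-fold in either direction in the 3 comparisons.

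**Figure D2:**
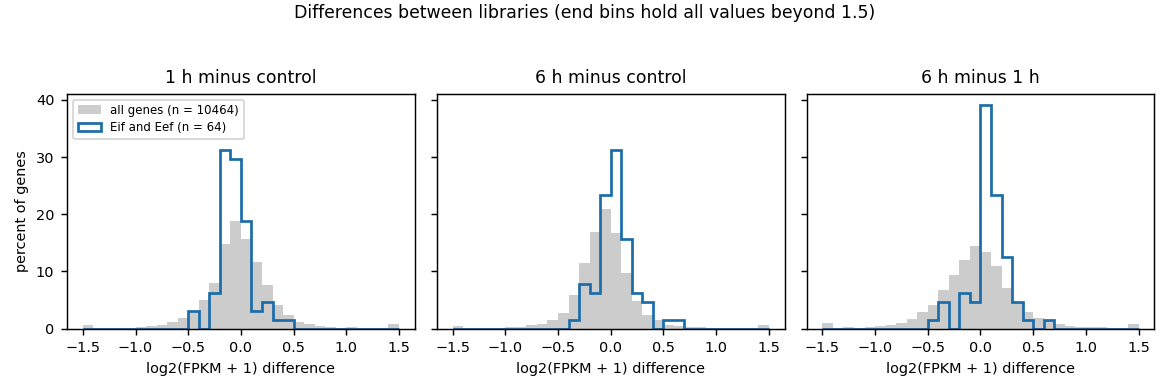
Percent of genes by log2(FPKM + 1) difference in bins of 0.1, for all 10464 genes (grey) and the 64 expressed Eif and Eef genes (blue outline), in each of the 3 comparisons. The blue outline is narrower than the grey in each, lies mostly below 0 at 1 h against the control and mostly above 0 at 6 h against 1 h.

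Within that narrow range, and on the deposited scale, most members had a 1 h value slightly below both the control and the 6 h value. At 1 h 45 of 64 were below the control, beside 54.5% of all genes, and the median log2 difference was -0.08, beside -0.02 for all genes. At 6 h 39 were above the control, where 38.0% of all genes were above it and 61.9% below, with a median of 0.02 beside -0.06. Between 6 h and 1 h 53 were higher, where 45.2% of all genes were higher and 54.7% lower, with a median of 0.08 beside -0.03. The 3 comparisons share libraries, so these values are not independent of each other. In 42 members the 1 h value was the lowest of the 3, beside 36.8% of all genes. The 1 h library has the smallest sum of FPKM, and these counts were not retaken after rescaling.

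By deposited bounds that lay apart without overlap, 4 members were higher and 16 lower at 1 h than in the control, where 14.9% of all genes were higher and 20.1% lower by this rule. At 6 h 18 were higher and 7 lower than the control, beside 11.2% and 19.2% of all genes, and between the washout times 25 were higher and 6 lower, beside 19.7% and 23.0%. Bounds are narrow for abundant genes, so this rule picks up small differences in them. The bounds were used as deposited, without rescaling.

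Ribosomal protein and synthetase genes are the gene sets most alike in function. Of 77 expressed cytosolic ribosomal protein genes, 75 were below the control at 1 h, beside 54.5% of all genes, with a median of -0.13. Between 6 h and 1 h 76 were higher, beside 45.2% of all genes, with a median of 0.11. Of 22 cytosolic aminoacyl-tRNA synthetase genes and partners, 15 were above the control at 1 h, beside 45.4% of all genes, with a median of 0.12. Their median between 6 h and 1 h was -0.10. These counts too are on the deposited scale, on which the 1 h library has the smallest sum. At 6 h the medians were -0.01 and -0.00, and both were positive under each rescaling. These sets could not be tested against the factors with 1 library per group.

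**Figure D3:**
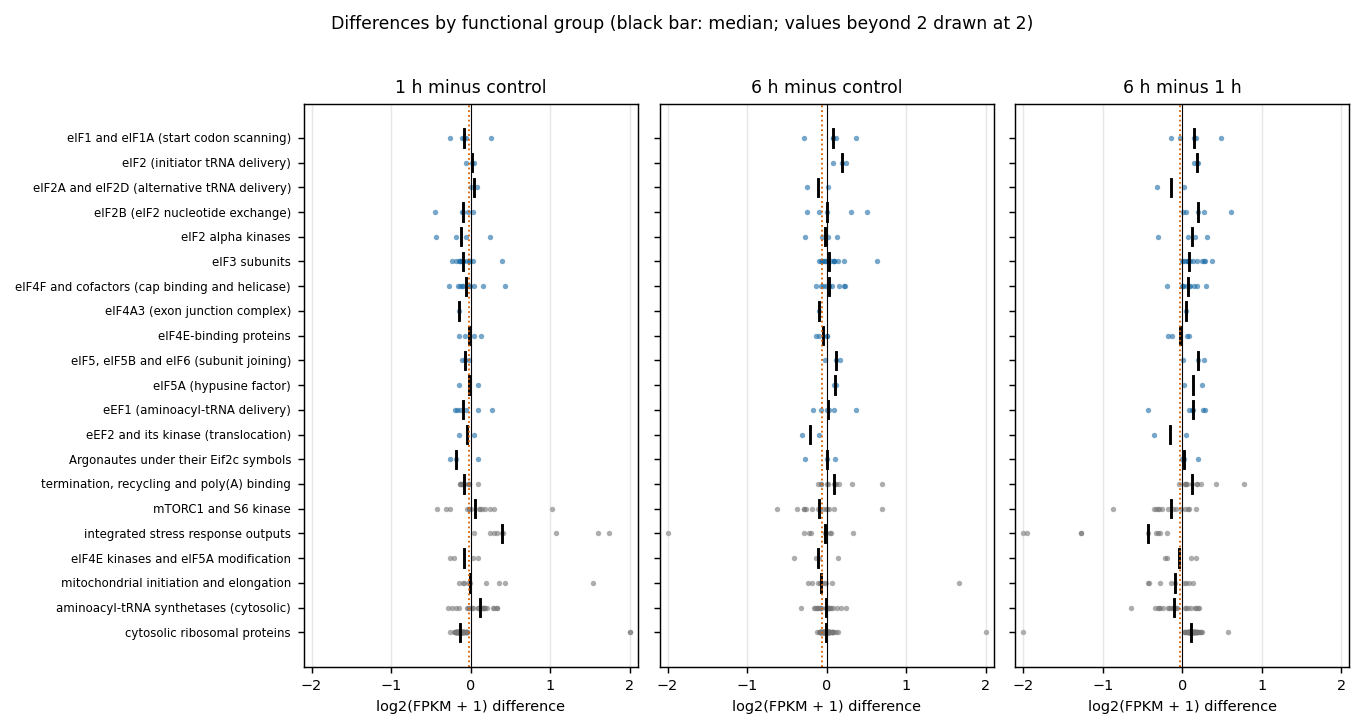
Differences in log2(FPKM + 1) of each expressed gene by functional group, in the 3 comparisons, for Eif and Eef groups (blue) and other gene lists (grey). Black bars are group medians and the dotted orange line is the median of all genes. Factor groups stay near 0, while outputs of the integrated stress response lie to the right at 1 h.

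Among the scanning factors, Eif1 encodes the small protein that guards start codon choice. It had 391, 467 and 423 FPKM, highest at 1 h, the reverse of most members. Its ratio to the control was 1.20 (1.15 to 1.24) at 1 h and 1.08 (1.04 to 1.12) at 6 h. Its paralogue Eif1b had 34.8, 29.0 and 28.3 FPKM, with ratios of 0.833 (0.713 to 0.973) and 0.814 (0.697 to 0.951). Eif1 thus stood at 11.2 times the level of Eif1b in the control and at 16.1 times at 1 h. Eif1a, which encodes a partner of eIF1 in scanning, was highest at 6 h, at 63.9, 59.2 and 83.0 FPKM. Its 6 h value was 1.30 times the control (1.23 to 1.37) and 1.40 times the 1 h value (1.32 to 1.48). The closely related Eif1ax had 201, 194 and 214 FPKM with bounds that overlapped in every comparison, and Eif1ad, which encodes a protein with an eIF1A-like domain, had 22.1, 20.8 and 23.5 FPKM.

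The 3 expressed subunits of eIF2 were near the control at 1 h and above it at 6 h. Eif2s1 encodes the alpha subunit, whose phosphorylation slows initiation, and had 47.9, 49.6 and 57.1 FPKM. Eif2s2, the beta subunit gene, had 112, 113 and 129 FPKM, and Eif2s3x, which encodes the GTP-binding gamma subunit, had 187, 179.6 and 198 FPKM. In all 3 the 6 h library was highest, and its bounds lay apart from those of both other libraries. The ratios at 6 h to the control were 1.19 (1.12 to 1.26), 1.15 (1.09 to 1.21) and 1.06 (1.03 to 1.09). Bounds lay apart in this direction in 11.2% of all genes at 6 h against the control. At 6 h against 1 h they did so in 19.7%. Per length the gamma message was 3.90 times as abundant as the alpha message in the control and 3.48 times at 6 h.

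The eIF2B complex recharges eIF2 with GTP, and its 5 subunit genes did not share a pattern. Eif2b2, the beta subunit gene, had 41.3, 38.6 and 59.2 FPKM. Only the 6 h library stood apart, at 1.44 times the control (1.31 to 1.57) and 1.54 times the 1 h value (1.39 to 1.70). The deposited tables place it on chromosome 12 at 86560463 to 86567578 (mm9). Eif2b3, the gamma subunit gene, was also highest at 6 h, at 31.9, 32.6 and 39.8 FPKM, or 1.24 times the control (1.13 to 1.37). Eif2b4, the delta subunit gene, was lowest at 1 h, at 23.9, 17.3 and 19.98 FPKM. Its ratio to the control was 0.724 (0.642 to 0.815) at 1 h and 0.835 (0.744 to 0.938) at 6 h. Its log2 difference at 1 h, -0.44, was the lowest of any expressed member in that comparison, although Eif2ak2 had a lower ratio, 0.718. Eif2b1, for the alpha subunit, had 31.6, 30.9 and 31.9 FPKM, and Eif2b5, for the catalytic epsilon subunit, 31.3, 28.9 and 29.2 FPKM, with overlapping bounds throughout. The level of the beta message relative to the delta message was 1.73, 2.23 and 2.96 in the same order.

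The 4 kinases that phosphorylate eIF2 alpha were low, with 4.81 to 17.9 FPKM in the control. Eif2ak1 encodes HRI, which haem deficiency activates, and had 17.9, 15.7 and 19.7 FPKM. It was 1.25 times as high at 6 h as at 1 h (1.12 to 1.40). Eif2ak2 encodes PKR, a sensor of double-stranded RNA, and had 10.7, 7.68 and 8.67 FPKM. It was the 1 kinase with bounds apart from the control at both times, with ratios of 0.718 (0.630 to 0.819) and 0.811 (0.714 to 0.920). Eif2ak3, for the endoplasmic reticulum stress sensor PERK, was highest at 1 h, at 4.81, 5.89 and 4.57 FPKM. Its ratio to the control was 1.22 at 1 h (1.05 to 1.43), although the bounds themselves overlapped. Eif2ak4, for the amino acid sensor GCN2, had 5.73, 5.45 and 5.80 FPKM with overlapping bounds.

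Genes downstream of eIF2 phosphorylation were taken from a list that was chosen with earlier results of these data known. Of 9 such genes all 9 were above the control at 1 h, beside 45.4% of all genes, with a median log2 difference of 0.39. At least 2-fold higher were 3 of them, beside 1.31% of all genes. Bounds lay apart in 8, beside 14.9% of all genes, while those of Atf5 overlapped, at a ratio of 1.03 (0.973 to 1.09). Ppp1r15a, which encodes GADD34, the phosphatase subunit that reverses eIF2 phosphorylation, had 11.3, 36.5 and 14.5 FPKM, or 3.23 times the control at 1 h (2.87 to 3.63). The other genes past 2-fold at 1 h were Chac1, at 3.23, 13.1 and 2.64 FPKM, and Trib3, at 0.994, 3.21 and 0.737 FPKM. Trib3 was under 1 FPKM in the control and at 6 h. It met the expression filter only through the 1 h library, where it was high, so the counts above include it for that reason. Atf4, the central transcription factor gene, had 171, 227 and 168 FPKM, a ratio of 1.33 at 1 h (1.27 to 1.39). At 6 h the list median was -0.03, and 0.04 with the libraries set to equal medians of the gene ratios. Ddit3 had 43.8 FPKM in the control and 57.8 at 1 h and was listed at 0 at 6 h, which can be a failed estimate.

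Initiator tRNA can also reach the ribosome by other routes. Eif2a had 28.6, 28.6 and 29.1 FPKM, a highest-to-lowest ratio of 1.02. Eif2d had 14.0, 14.8 and 11.7 FPKM and was lowest at 6 h, at 0.835 times the control (0.731 to 0.953) and 0.788 times the 1 h value (0.688 to 0.903). Denr, whose product acts with MCTS1 in reinitiation and recycling and resembles eIF2D in part, was highest at 6 h, at 68.8, 65.0 and 112 FPKM, a ratio to the control of 1.63 (1.54 to 1.72). It was the 1 gene past 1.5-fold among 11 expressed termination, recycling and poly(A)-binding genes. The median of that list was -0.09 at 1 h and 0.09 at 6 h, on the same sides of the control as the factors. The release factor gene Etf1 had 94.1, 87.4 and 118 FPKM, and the poly(A)-binding protein gene Pabpc1 821, 759 and 825 FPKM.

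The eIF3 complex, the largest initiation factor, was represented by 14 expressed genes. Leaving Eif3j1 and Eif3j2 aside, they lay between 97.5 and 290.0 FPKM in the control, a span of 2.97-fold from Eif3f to Eif3h. Of the 14, 12 were below the control at 1 h, beside 54.5% of all genes. All 14 were higher at 6 h than at 1 h, beside 45.2% of all genes. In Eif3k, at 114, 107 and 107 FPKM, and in Eif3e that log2 difference was under 0.01. Bounds lay apart in 5 of the 14, all higher at 6 h than at 1 h, beside 19.7% of all genes. These counts are on the deposited scale and were not retaken after rescaling. The medians were -0.09 at 1 h and 0.03 at 6 h. Eif3f had the lowest ratio to the control at 1 h, with 97.5, 82.5 and 93.7 FPKM and 0.846 (0.786 to 0.911). Eif3b, which encodes a scaffold subunit, had 193, 170.1 and 206 FPKM, below the control at 1 h and above it at 6 h with bounds apart each time. Eif3h, the most abundant, had 290.0, 265 and 278 FPKM, or 0.912 times the control at 1 h (0.868 to 0.960). Eif3a, which encodes the largest subunit, had 101, 103 and 108 FPKM. Eif3g had 135, 124 and 150.0 FPKM, with bounds apart between 1 h and 6 h alone, and Eif3c had 103, 95.7 and 98.3 FPKM, with bounds apart between the control and 1 h alone. The bounds of Eif3d, Eif3i, Eif3l and Eif3m overlapped in every comparison, with highest-to-lowest ratios from 1.05 in Eif3d to 1.10 in Eif3m.

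Eif3j1 and Eif3j2 encode nearly identical copies of the loosely bound j subunit, and their loci in the files coincide, on chromosome 2 from 121854359 to 121879365 and from 121854319 to 121879367 (mm9). How fragments were divided between them is uncertain, and Eif3j1 carried a low-data status. Eif3j2 had 14.8, 19.7 and 23.6 FPKM, at 6 h 1.59 times the control (1.39 to 1.82). Eif3j1 had 41.7, 37.7 and 49.0 FPKM, or 1.17 times the control at 6 h (1.08 to 1.27). Their sum was 56.5, 57.5 and 72.5 FPKM, which is 1.02 times the control at 1 h and 1.28 times at 6 h. The 1.5-fold count at 6 h therefore rests on this split: the summed gene had a log2 difference of 0.35, below that threshold.

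The cap-binding complex eIF4F joins the cap-binding protein eIF4E, the scaffold eIF4G and the helicase eIF4A. Eif4e had 66.8, 68.7 and 78.1 FPKM, highest at 6 h, at 1.17 times the control (1.11 to 1.24). Eif4a1 encodes the main helicase and had 718, 708 and 753 FPKM, or 10.8 times the level of Eif4e in the control. Its ratio to the control was 0.986 (0.965 to 1.01) at 1 h, a difference that turned positive under every rescaling, and 1.05 (1.03 to 1.07) at 6 h. The scaffold gene Eif4g1 was lowest at 1 h, at 206, 183 and 197 FPKM with a ratio of 0.892 (0.871 to 0.913). Eif4g2, which encodes a scaffold that lacks the eIF4E site, had 151, 139.9 and 155 FPKM, and Eif4g3 had 22.8, 25.4 and 25.6 FPKM, above the control at both times.

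The helicase cofactor gene Eif4b had 204, 169 and 209 FPKM, so that only the 1 h library stood apart. It was 0.828 times the control at 1 h (0.803 to 0.854) and 1.02 times at 6 h (0.991 to 1.05). The related Eif4h had 220.1, 206 and 214 FPKM. Eif4e3, a weakly expressed relative of Eif4e, was highest at 1 h, at 5.44, 7.71 and 6.58 FPKM. Its ratio of 1.42 (1.19 to 1.69) was the largest of any expressed member at 1 h, and its log2 difference was 0.44. Eif4e2, which encodes the competing cap-binding protein 4EHP, had 52.8, 47.9 and 48.1 FPKM. The exon junction gene Eif4a3 had 124, 112 and 116 FPKM, and its bounds overlapped between libraries.

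The 4E-binding proteins hold eIF4E away from eIF4G until mTOR phosphorylates them. Eif4ebp1 had 143, 157 and 143 FPKM, and was thus 2.14 times as abundant per length as Eif4e in the control, 2.28 times at 1 h and 1.83 times at 6 h. Its ratio to the control was 1.10 at 1 h (1.02 to 1.18) and 1.00 at 6 h (0.929 to 1.08). Eif4ebp2 had 53.8, 55.5 and 48.9 FPKM, lowest at 6 h, and Eif4ebp3 was scarce, at 3.18, 2.76 and 2.92 FPKM. Eif4enif1, which encodes the eIF4E transporter 4E-T, had 23.2, 21.9 and 23.3 FPKM. Bounds of these 4 genes overlapped those of the control at both times, and the sign of their median depended on the scaling. Of 14 genes of mTORC1, its regulators and S6 kinase, 1 was past 2-fold at 1 h, beside 1.31% of all genes higher and 0.831% lower. It was Ddit4, which encodes the mTORC1 inhibitor REDD1, at 46.1, 94.4 and 75.1 FPKM. Deptor, for another mTOR inhibitor, had 10.1, 12.2 and 6.19 FPKM, and at 6 h was 0.614 times the control (0.526 to 0.716). Mtor itself had 6.97, 8.05 and 6.38 FPKM. None of the 4 genes for eIF4E kinases and eIF5A modification was past 1.5-fold in any comparison, and of these Mknk2, an eIF4E kinase gene, had 44.2, 38.0 and 33.0 FPKM.

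**Figure D4:**
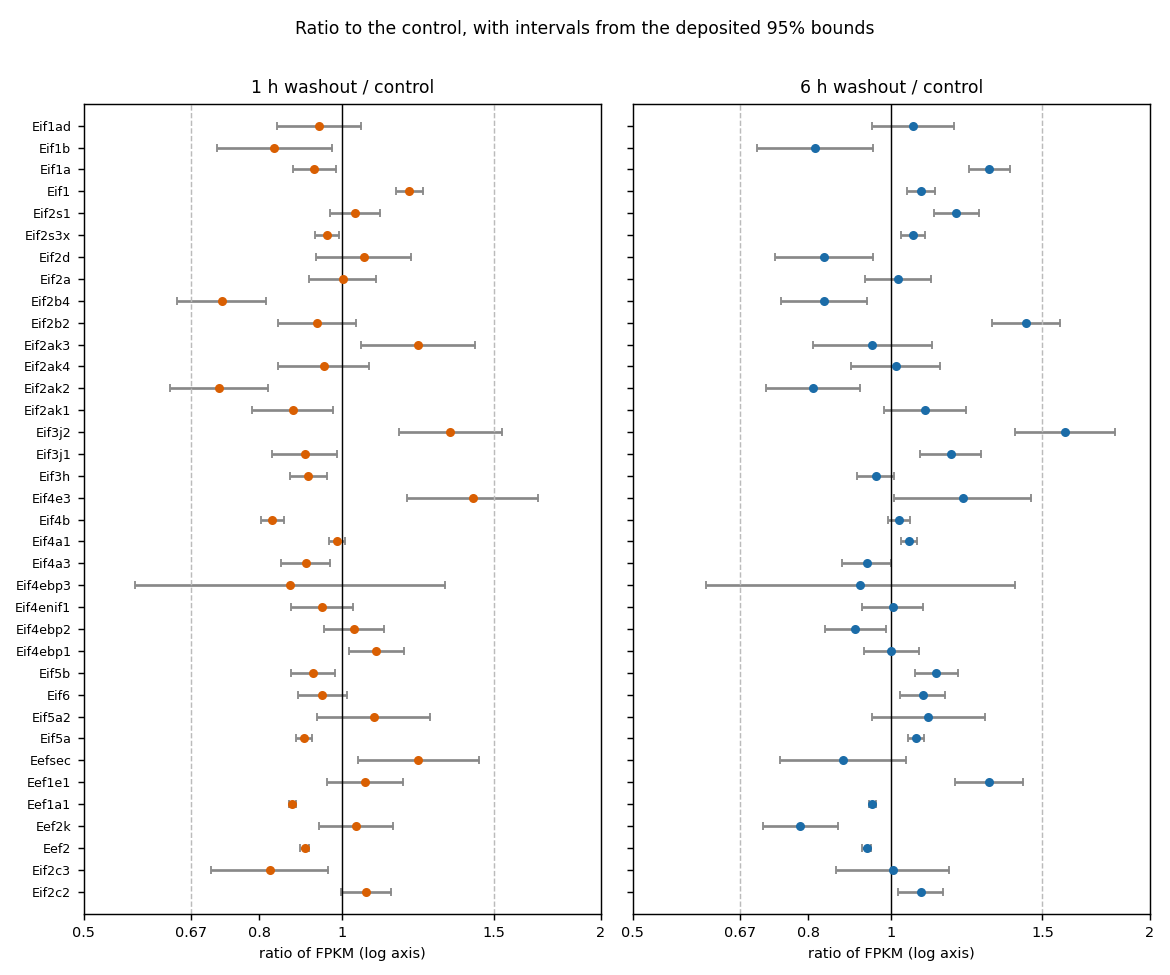
Ratio of FPKM to the control at 1 h (left, orange) and 6 h (right, blue) for the 36 members named by rule, on a log axis, with bars from the widths of the deposited 95% bounds and dashed lines at 1.5-fold either way. Eif3j2 is the 1 gene past the dashed line, at 6 h, while Eif2b2 and Eif1a are also to the right at 6 h and Eif2b4 and Eif2ak2 to the left at 1 h.

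Eif5, Eif5b and Eif6, which act late in initiation or on the large subunit, were each lowest at 1 h. The bounds of all 3 overlapped those of the control at 1 h, and Eif5 was nearly level, with 80.8, 79.5 and 79.8 FPKM. Eif5b, for the GTPase that joins the ribosomal subunits, had 21.0, 19.4 and 23.7 FPKM, and at 6 h was 1.13 times the control (1.06 to 1.20). Eif6, for a factor that keeps the large subunit apart until it is ready, had 112, 106 and 122 FPKM. Eif5a encodes a protein that carries the modified residue hypusine and relieves stalled ribosomes. It had 1229, 1109 and 1313 FPKM, so the 1 h library was lowest and the 6 h library highest, with bounds apart in all 3 comparisons. The ratios to the control were 0.902 (0.883 to 0.922) and 1.07 (1.05 to 1.09). Its paralogue Eif5a2 had 4.16, 4.52 and 4.59 FPKM, with overlapping bounds, and Eif5a stood at 296 times its level in the control.

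Eef1a1, for the factor that delivers aminoacyl-tRNA, was the most abundant member in each library. It had 4376, 3826 and 4159 FPKM. The control was highest, with a ratio of 0.874 (0.867 to 0.882) at 1 h and 0.951 (0.942 to 0.959) at 6 h. The narrow ranges reflect its many fragments, and because the gene has many processed copies in the genome, its value depends on how such fragments were assigned. On a common sum of FPKM its log2 difference at 1 h was -0.14 in place of -0.19, and with the libraries set to equal medians of the gene ratios that at 6 h was -0.01 in place of -0.07. Eef1b2, Eef1g and Eef1d encode the complex that recharges eEF1A. Eef1b2 had 242, 215 and 258 FPKM, Eef1g 495, 452 and 498 FPKM and Eef1d 193, 186 and 198 FPKM. All 3 were lowest at 1 h and highest at 6 h, with bounds apart from the control at 1 h for Eef1b2 and Eef1g but not for Eef1d.

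Eef2 was also highest in the control, at 1289.8, 1166 and 1207 FPKM, with ratios of 0.904 (0.893 to 0.915) and 0.936 (0.925 to 0.947). By the same setting of medians its log2 difference at 6 h was -0.03 in place of -0.10. Eef2k, for the kinase that inhibits eEF2, had 8.23, 8.54 and 6.45 FPKM, so that the 6 h library was lowest. At 6 h it was 0.783 times the control (0.708 to 0.866) and 0.755 times the 1 h value (0.682 to 0.837). It had the lowest log2 difference from the control of any expressed member at 6 h, -0.31. Eefsec, for the factor that delivers selenocysteine-tRNA, was highest at 1 h, at 7.82, 9.58 and 6.86 FPKM, and its ratio of 0.716 (0.610 to 0.841) was the lowest of any expressed member between 6 h and 1 h. Eef1e1 encodes a protein of the multi-synthetase complex despite its elongation factor name. It had 71.0, 75.5 and 92.4 FPKM, at 6 h 1.30 times the control (1.19 to 1.43).

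Mitochondria use their own factors, which the Eif and Eef symbols do not cover. Of 9 expressed mitochondrial initiation and elongation genes, none was past 1.5-fold from the control at either time except Mtif3. By that rule 3.04% of all genes were higher and 3.50% lower at 1 h, and 2.34% and 2.77% at 6 h. Mtif3 was listed at 0 in the control, so that no fold is given, and had 1.89 and 2.18 FPKM at 1 h and 6 h. The median of the list was -0.01 at 1 h, positive under each rescaling, and -0.07 at 6 h.

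The 3 expressed Argonaute genes did not share a pattern. Eif2c2, for the slicing Argonaute AGO2, was the most abundant, at 17.8, 18.9 and 19.2 FPKM. Eif2c1 was highest in the control, at 10.0, 8.19 and 8.15 FPKM, with ratios of 0.818 (0.744 to 0.899) at 1 h and 0.814 (0.740 to 0.895) at 6 h. Eif2c3 had 2.29, 1.88 and 2.29 FPKM, with overlapping bounds. Without the Argonaute and eIF2 kinase genes, the median of the remaining 57 members was -0.08 at 1 h and 0.03 at 6 h. These 57 still include Eef2k, Eif4enif1, Eef1e1 and the 4E-binding protein genes.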

How the data were processed

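Polyadenylated RNA of 3 libraries, 1 per group, was profiled. The tools were FastQC, TopHat and Cufflinks and the build mm9, per the submitters' processing notes; their versions, settings, strand and annotation were not given in the sources used here. The deposited FPKM and its bounds, per the file headers, came as 23807 rows per library, and the series table held the same FPKM in 23807 of 23807 rows per library. The headers of its timed columns read "cont" and the hour, which no label explains, and the hour gave the matching library.

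Rows of a symbol were summed. Differences are log2(FPKM + 1), which understates low genes, and genes averaging 1 FPKM or more were kept. Ratios are of FPKM without the pseudocount. Their ranges combine the relative half-widths of both libraries' bounds, taken around the bounds' midpoint, because FPKM lay outside its own bounds for 33 of the 64 kept members in at least 1 library. The midpoint lay at 0.75 to 1.01 of FPKM but moved by at most 0.013 between libraries within a gene. Loci of 13 kept members overlapped another symbol, 8 of them one of at least 1 FPKM.

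Depth was estimated from low values of genes with 1 GENCODE vM21 transcript, for which 61.7%, 64.8% and 63.9% of 274, 236 and 241 values lay within 0.15 of a whole multiple; this does not recover whole fragments, so no count model was used. The call functions were tested on simulated data. Members and lists were chosen with earlier results of these data known. The text names 36 members by rule (past 1.5-fold, highest and lowest of each group, regulators, and the 3 most positive and negative differences per comparison), and the other members by their group. In the lists of other pathway genes it names those past 1.5-fold, with none of the synthetase and ribosomal protein genes. It also names Atf4, Atf5, Etf1, Pabpc1, Mtor and Mknk2, after their values were seen. Which motifs to search was also decided after values were seen. Python 3.11.15, pandas 2.3.3 and numpy 2.4.6 were used.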

Additional observations from a re-analysis of the deposited data

Results flagged for a closer look

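In 3 members the deposited bounds lay apart from the control on opposite sides at the 2 washout times, below it at 1 h and above it at 6 h. The log2 differences were -0.17 and 0.0913 for Eef1b2, -0.18 and 0.0930 for Eif3b, and -0.15 and 0.10 for Eif5a. Among all genes that passed the filter 5.25% had bounds apart on opposite sides in either order, beside 4.69% of the members. The share of all genes below at 1 h and above at 6 h alone is not given. The difference between the times was not tested, since each is 1 library and both share the control.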

How the results depend on the processing

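No paired analysis was possible because each group held 1 library, and for the same reason no library could be left out. With a pseudocount of 5, the count of members 1.5-fold or more above the control at 6 h became 0 in place of 1, as did that at 6 h above 1 h. On a common sum of FPKM, chosen after seeing the data, the latter count was also 0. The median of the members ranged from -0.08 to -0.03 at 1 h, from 0.01 to 0.08 at 6 h and from 0.05 to 0.12 between the washout times over the alternatives that gave one, and kept its sign in each. These were 2 pseudocounts, 3 rescalings, no filter on low values or one at 5 FPKM, the highest row per symbol, status OK and the series table. Leaving out the member that differed most was another, as was leaving out the Argonaute and eIF2 kinase genes. Of 753 values of named members under the alternatives 30 moved by more than the range from the bounds. Of 606 group medians 7 moved by more than the median such range of their members. Some of these alternatives could not move a value. Each member had 1 row, so the highest row per symbol was the same, and status OK could only leave a named member out. The series table held the same FPKM, so it could not move a median. No called direction reversed. Medians near 0 (4E-binding proteins and mitochondrial factors at 1 h; eIF2 kinases, 4E-binding proteins, stress outputs, synthetases and ribosomal proteins at 6 h) and that of the Argonautes between 6 h and 1 h changed sign under a rescaling, and that of eIF2B at 6 h, 0.01, was -0.04 without Eif2b2. On a 1 kb transcript 3 fragments correspond to 0.128 to 0.146 FPKM.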
